A study of Macaca fascicularis with 8 samples.

Results

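Antigen processing genes supply peptides to major histocompatibility complex (MHC) class I molecules, and 10 of them were followed here among the 33121 genes of the deposited table: B2M, TAP1, TAP2, TAPBP, PSMB8, PSMB9, PSMB10, ERAP1, NLRC5 and IRF1. Their rows were chosen by gene name or, where the table gave no name, by the best protein match at 85% identity or more, with no use of the measured levels. No row carried the name of any of the 10 genes, so each rests on its protein match, and each matched exactly 1 row. Names are therefore those of the matched proteins.

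The samples were embryonic stem cells (ESCs) of the cynomolgus monkey (Macaca fascicularis) in 4 dome-shaped and 4 primed libraries of polyadenylated RNA. Dome-shaped ESCs formed dome-shaped colonies with strong single cell passage in a medium called NHSMV, made of knockout DMEM, AlbuMAX I, N2 supplement, insulin, human LIF, bFGF, TGF-β1, glutamine, nonessential amino acids, β-mercaptoethanol, vitamin C and the kinase inhibitors PD0325901 (MEK), CHIR99021 (GSK3), SB202190 and SB203580 (p38) and SP600125 (JNK). Primed ESCs formed flat colonies with weak single cell passage in CESM, a mixture of PSGro human iPSC/ESC growth medium and conventional monkey ESC medium. Medium, colony shape and passage behaviour coincide with the group and cannot be told apart. The labels do not say that the libraries came from separate animals or cultures, so p-values measure only the spread between these libraries.

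In class I antigen processing, the proteasome cuts cytosolic proteins into peptides, the TAP transporter moves the peptides into the endoplasmic reticulum, tapasin holds the transporter beside empty class I molecules, and aminopeptidases trim the peptides to fit. Interferon gamma raises most of these genes through IRF1 and NLRC5, and exchanges the catalytic subunits of the proteasome for the immunoproteasome subunits encoded by PSMB8, PSMB9 and PSMB10. Pluripotent stem cells are known for low class I expression and for a weak response to interferon.

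The genes did not move together. In dome-shaped ESCs TAP1 was higher, and ERAP1 and PSMB10 lower, than in primed ESCs. B2M, TAP2, TAPBP and IRF1 did not pass the test, and PSMB8, PSMB9 and NLRC5 lay below the level required for testing. A gene was tested if it reached 1 RPKM (mapped reads divided by gene length and library size) in at least 4 of the 8 libraries, and was called at an adjusted p under 0.05 by limma. By this rule 7 of the 10 genes were tested, 1 was higher and 2 were lower, while 14.3% of the 15597 genes tested in all were called, 6.38% as higher and 7.96% as lower. The libraries of the groups did not overlap for the 3 called genes and overlapped for the other 4 tested, while they did not overlap for 22.2% of all genes tested. The median log2 difference of the 7 tested genes was 0.20, against 0.026 over all genes tested.

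The libraries held an implied 14400000 to 17680000 reads in dome-shaped and 16360000 to 18080000 reads in primed ESCs. ESC markers were expressed in both groups, among them SOX2 at 219.1 to 322.1 RPKM in dome-shaped and 171.9 to 272.8 RPKM in primed ESCs. NANOG was lower in every dome-shaped than in every primed library, as were 10.7% of all genes tested. It was not called (limma, log2 difference -0.75, adjusted p = 0.0836). Dome-shaped ESCs had lower levels of 6 of 11 tested ESC markers and higher levels of none. Among all genes tested 7.96% were lower and 6.38% higher. Of the 6 markers, TDGF1 differed by -2.41 and ZFP42 by -0.75 on the log2 scale (limma, adjusted p = 0.0313 and 0.00780). TERT differed by -0.73 and PRDM14 by -1.22 (limma, adjusted p = 0.0233 and 0.0401). Of these 4 only ZFP42 kept its call without each library in turn, and the number of ESC markers called ranged from 1 (without dome-shaped replicate 3, primed replicate 2 or primed replicate 4) to 8 (without dome-shaped replicate 4). Of 13 leukocyte markers 11 were under 1 RPKM in every library, the pan-leukocyte gene PTPRC at no more than 0.0520 RPKM. Their summed level was nevertheless 1.87 to 3.18 RPKM in dome-shaped and 3.88 to 14.5 RPKM in primed libraries, without overlap. LCP1, the only one tested, carried this separation, with 0.536 to 1.58 RPKM in dome-shaped and 1.60 to 11.1 RPKM in primed libraries. It was not called (limma, log2 difference -1.17, adjusted p = 0.109). Without LCP1 the sums of the leukocyte markers overlapped between the groups. The part of such cells in the levels below was not tested. These are bulk libraries, in which fewer cells of a type and less RNA per cell cannot be told apart.

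**Figure D1:**
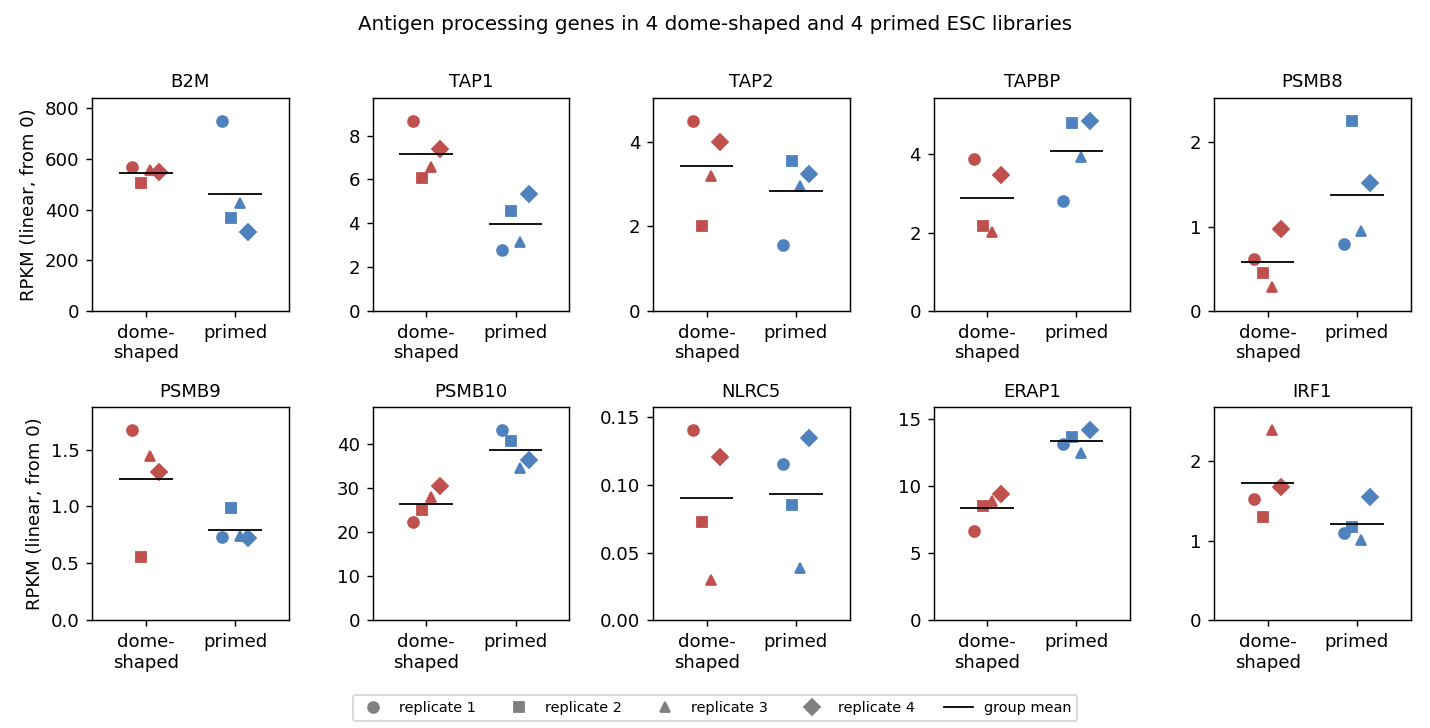
Level of each of the 10 genes in RPKM (linear axes from 0, a scale of its own per gene) in the 4 dome-shaped and 4 primed libraries; symbols mark replicates and the line the group mean. The groups are separate for TAP1, PSMB10 and ERAP1 and overlap for the other 7 genes.

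B2M encodes beta-2-microglobulin, the light chain that every classical class I molecule needs to fold. It was the most abundant of the 10 genes, with a mean level above that of 99.5% of all genes. Its row had a length of 357 bases, equal to the matched coding sequence alone. B2M had 568.0, 505.3, 557.6 and 550.9 RPKM in dome-shaped replicates 1 to 4, against 750.5, 365.6, 424.5 and 312.4 RPKM in primed replicates 1 to 4. The dome-shaped libraries lay close together, and 3 of the 4 primed libraries lay below all of them, whereas primed replicate 1 lay above all of them. The log2 difference was 0.32 with a 95% interval of -0.20 to 0.83 (limma, adjusted p = 0.373), so that B2M was not called. Without primed replicate 1 the difference was 0.58 and was called (limma, adjusted p = 0.0133), and without primed replicate 4 it was 0.16 (limma, adjusted p = 0.676).

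Primed replicate 1 also had the highest summed level of 10 fibroblast markers, 258.8 RPKM, mainly COL1A1, COL1A2 and THY1. The sum was 53.2 to 86.8 RPKM in dome-shaped libraries and 71.8 to 145.5 RPKM in primed replicates 2 to 4. Not all fibroblast markers peaked in primed replicate 1. COL6A3 was highest in dome-shaped replicate 1, at 18.2 RPKM, and COL3A1 in dome-shaped replicate 2, at 7.09 RPKM. Their log2 differences were 0.92 and 1.33, neither called (limma, adjusted p = 0.173 and 0.200). Those of COL1A1, COL1A2 and THY1 were negative and not called either. The fibroblast marker DCN was at 0 in 6 of the 8 libraries, including primed replicate 1, and of 6 tested fibroblast markers only PDGFRB was called, as lower (limma, log2 difference -0.75, adjusted p = 0.0247, and up to 0.0744 without single libraries). The part of these cells in the level of B2M was not tested. The 5 other tested genes with a symbol whose pattern over the 8 libraries was most like that of B2M were NT5DC3, SHC3, ANXA2, ANAPC5 and FAM129B, with Pearson's r of 0.971, 0.956, 0.948, 0.931 and 0.928 on the log2(RPKM + 1) scale. These correlations rest on 8 libraries that share the group difference and the high value of primed replicate 1. ANXA2, a membrane-binding annexin, had 378.3, 336.9, 290.8 and 285.7 RPKM in dome-shaped and 550.5, 202.9, 247.4 and 181.2 RPKM in primed libraries.

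The heavy chains that pair with beta-2-microglobulin are encoded in macaques by many near-identical class I genes, which can share reads, so single rows are uncertain. Of 33 rows whose protein match was a class I heavy chain, 26 had a mean of at least 1 RPKM and 24 were tested. By limma 3 of the 24 were lower in dome-shaped ESCs and 0 higher, beside 7.96% lower and 6.38% higher among all genes tested. At an unadjusted p under 0.05, 10 were lower and 0 higher, beside 15.4% lower and 16.2% higher among all genes tested. The number lower was 1 to 4 when single libraries were left out. The difference was negative for 20 of the 24, with a median of -0.42 on the log2 scale. The 26 rows summed to 174.1, 105.1, 112.2 and 149.0 RPKM in dome-shaped libraries, against 145.3, 196.3, 221.5 and 209.1 RPKM in primed libraries. The means were 135 ± 32.4 RPKM in dome-shaped and 193 ± 33.5 RPKM in primed ESCs (SD, n = 4 each), and the groups overlapped, as dome-shaped replicates 1 and 4 exceeded primed replicate 1.

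The rows called as lower were ENSMMUG00000030622, ENSMMUG00000029875 and Novel00810. ENSMMUG00000030622 had 0.369, 0.275, 0.504 and 0.618 RPKM in dome-shaped libraries, against 1.43, 1.75, 2.90 and 1.95 RPKM in primed libraries (limma, log2 difference -1.05, SE 0.19, adjusted p = 0.00932). ENSMMUG00000029875 had 7.36, 6.53, 6.94 and 8.10 RPKM in dome-shaped libraries, against 19.0, 10.1, 20.7 and 10.6 RPKM in primed libraries (limma, log2 difference -0.91, SE 0.23, adjusted p = 0.0301). Novel00810, whose best match was only 77.1% identical, had 0.724 to 1.33 RPKM in dome-shaped and 1.89 to 3.76 RPKM in primed libraries (limma, log2 difference -0.78, adjusted p = 0.0310). In each of the 3 rows every dome-shaped library lay below every primed library, as for 10.7% of all genes tested. The same held for ENSMMUG00000030910, with 5.04 to 9.55 RPKM in dome-shaped and 9.86 to 26.1 RPKM in primed libraries. That row was not called (limma, log2 difference -0.96, adjusted p = 0.0556). Only ENSMMUG00000030622 kept its call without each library in turn (limma, adjusted p of at most 0.0330); ENSMMUG00000029875 lost it without dome-shaped replicate 1, 2 or 3 or primed replicate 1 or 3, and Novel00810 without dome-shaped replicate 2 or 3 or primed replicate 2 or 4.

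Some class I rows separated libraries within the primed group rather than the groups. ENSMMUG00000016091 stood at 24.6 RPKM in primed replicate 3 and at no more than 0.0591 RPKM in each of the other 7 libraries. ENSMMUG00000012835 was listed at 0 in primed replicates 1 and 3, with 1.79 to 4.14 RPKM in the dome-shaped libraries and 2.19 and 3.72 RPKM in primed replicates 2 and 4. Novel00680, whose best match was 68.8% identical, had 5.78 to 8.67 RPKM in the dome-shaped libraries, with 11.2 and 12.4 RPKM in primed replicates 2 and 4 and 1.06 and 0.974 RPKM in primed replicates 1 and 3. Primed replicates 1 and 3 thus had no RNA counted on ENSMMUG00000012835 and the lowest levels on Novel00680. Yet the titles give primed replicate 1 the same CES number as dome-shaped replicates 1 and 2. They give primed replicate 3 the same number as dome-shaped replicate 4 and primed replicate 4. The labels do not say what the number stands for.

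**Figure D2:**
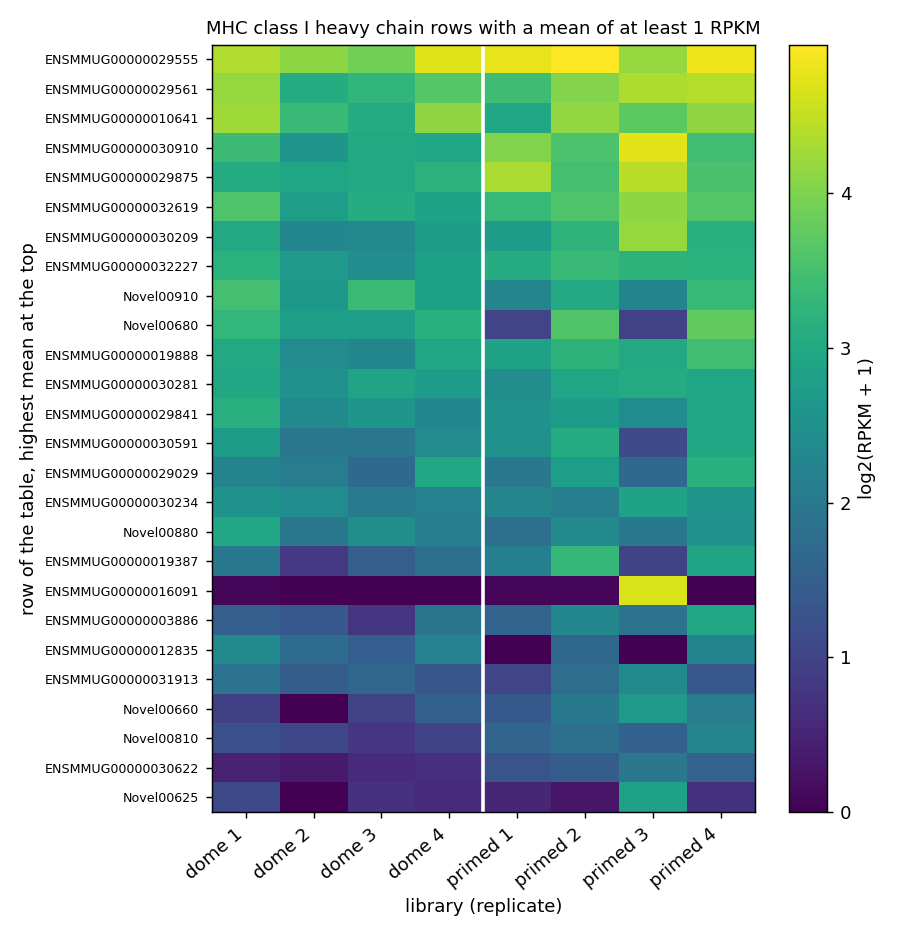
Level of the 26 class I heavy chain rows with a mean of at least 1 RPKM (vertical, highest mean at the top) in the 8 libraries (horizontal), coloured by log2(RPKM + 1). ENSMMUG00000016091 is high only in primed replicate 3. In primed replicates 1 and 3 alone ENSMMUG00000012835 is at 0, and Novel00680 is lowest there.

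TAP1 and TAP2 encode the subunits of the peptide transporter. TAP1 had 8.67, 6.08, 6.58 and 7.41 RPKM in dome-shaped libraries, against 2.80, 4.57, 3.16 and 5.35 RPKM in primed libraries. Every dome-shaped library lay above every primed library, as for 11.5% of all genes tested. The mean was 7.18 ± 1.13 RPKM in dome-shaped and 3.97 ± 1.20 RPKM in primed ESCs (SD, n = 4 each), and the log2 difference of 0.74 had a 95% interval of 0.31 to 1.18 (limma, SE 0.19, adjusted p = 0.0342). The call did not survive the loss of any single library other than primed replicate 4: the adjusted p was 0.0532 to 0.0851 without dome-shaped replicate 1, 2, 3 or 4 or primed replicate 1, 2 or 3 (limma), while the difference stayed at 0.62 or more.

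TAP2 had 4.49, 2.02, 3.18 and 3.98 RPKM in dome-shaped libraries, against 1.57, 3.55, 2.96 and 3.24 RPKM in primed libraries. The groups overlapped, with the lowest library in primed ESCs and the highest in dome-shaped ESCs. The log2 difference was 0.20 with a 95% interval of -0.35 to 0.75 (limma, adjusted p = 0.605). It was 0.02 without primed replicate 1 and 0.37 without dome-shaped replicate 2, and was not called without any single library. The 95% interval holds both no difference and a difference as large as the 0.74 of TAP1.

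TAPBP encodes tapasin, which bridges the transporter and the class I heavy chain. Its row was a short one, 792 bases long, and its best match aligned over 135 residues, so that it stands for a fragment of the gene. TAPBP had 3.89, 2.17, 2.01 and 3.48 RPKM in dome-shaped libraries, against 2.81, 4.79, 3.94 and 4.86 RPKM in primed libraries. The groups overlapped only through primed replicate 1, and the log2 difference of -0.40 was not called (limma, 95% interval -0.89 to 0.09, adjusted p = 0.236).

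Of the other genes of peptide loading and trimming, 15 of 16 were paired with a row and 13 were tested. NPEPPS, a cytosolic aminopeptidase, was higher in dome-shaped ESCs, with 43.6, 44.0, 42.1 and 40.5 RPKM against 35.7, 34.5, 31.2 and 38.0 RPKM in primed ESCs (limma, log2 difference 0.28, SE 0.080, adjusted p = 0.0451). Leaving out any library other than dome-shaped replicate 4 ended this call (limma, adjusted p of up to 0.115). The other 12 were not called, and the 13 had a median log2 difference of 0.024.

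PSMB10, PSMB8 and PSMB9 encode the catalytic subunits of the immunoproteasome, which replace the constitutive subunits encoded by PSMB7, PSMB5 and PSMB6. PSMB10 was the only one at a substantial level. It had 22.3, 25.0, 27.9 and 30.5 RPKM in dome-shaped libraries, against 43.1, 40.8, 34.6 and 36.5 RPKM in primed libraries. Every dome-shaped library lay below every primed library, as for 10.7% of all genes tested. The log2 difference was -0.54 with a 95% interval of -0.80 to -0.28 (limma, SE 0.11, adjusted p = 0.0172). The call was lost without dome-shaped replicate 2 or without primed replicate 2 (limma, adjusted p = 0.0524 and 0.0557).

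PSMB8 had 0.611, 0.455, 0.278 and 0.965 RPKM in dome-shaped libraries, against 0.791, 2.25, 0.951 and 1.51 RPKM in primed libraries. The groups overlapped only through dome-shaped replicate 4, and the row held no more than an implied 48 reads in any library. With no filter on low values the log2 difference was -0.57 (limma, SE 0.22, adjusted p = 0.152). PSMB9 had 1.67, 0.558, 1.44 and 1.30 RPKM in dome-shaped libraries, against 0.729, 0.983, 0.741 and 0.720 RPKM in primed libraries. Dome-shaped replicates 1, 3 and 4 lay above all primed libraries and dome-shaped replicate 2 below all of them. The row held 6 to 20 reads per library, and with no filter the log2 difference was 0.30 (limma, SE 0.18, adjusted p = 0.353).

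RPKM is scaled by length, so each subunit could be set against its constitutive counterpart in the same library. PSMB5 had 2 rows, of which 1 was used. PSMB8 gave whole reads at its listed length in only 1 of the 8 libraries. PSMB10 stood at 8.83%, 10.4%, 11.5% and 11.9% of PSMB7 in dome-shaped libraries, against 16.3%, 16.5%, 13.0% and 15.4% in primed libraries. The ratios did not overlap, and their log2 difference of -0.53 had p = 0.0286 in a two-sided exact permutation test, the smallest p that 70 relabellings can give, and 0.0857 after adjustment over the 3 ratios. PSMB8 stood at 0.254% to 0.867% of PSMB5 in dome-shaped and 0.673% to 1.81% in primed libraries (log2 difference -1.11, exact permutation p = 0.0857, adjusted 0.129). PSMB9 stood at 0.305% to 0.893% of PSMB6 in dome-shaped and 0.324% to 0.445% in primed libraries (log2 difference 0.78, exact permutation p = 0.143, adjusted 0.143). None of the 3 ratios passed the threshold after adjustment. A single ratio whose groups do not overlap can reach no adjusted p below 0.0857 on its own. The ratio of PSMB10 therefore could not have passed, whatever its size. The RNA of PSMB8 and PSMB9 stayed under 2% of the constitutive subunit's in all libraries.

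**Figure D3:**
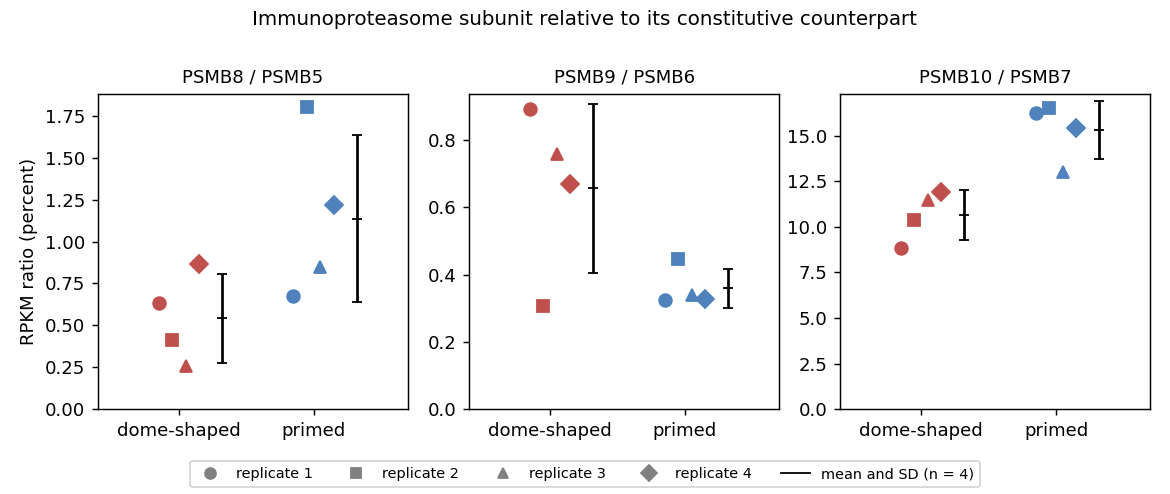
RPKM of PSMB8, PSMB9 and PSMB10 as a percentage of PSMB5, PSMB6 and PSMB7 in the same library (linear axes from 0), with the group mean and SD (n = 4) beside the 4 points. PSMB10 is at 8.83% to 11.9% of PSMB7 in dome-shaped and 13.0% to 16.5% in primed libraries, and the other ratios overlap.

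Of the constitutive subunits only PSMB6 was called. It was lower, at 188.6 ± 5.02 RPKM in dome-shaped and 221.3 ± 2.40 RPKM in primed ESCs (SD, n = 4 each; limma, log2 difference -0.23, adjusted p = 0.0245). PSMB5 had a log2 difference of -0.16 and PSMB7 of -0.03, neither called (limma, adjusted p = 0.165 and 0.779). Of 13 tested genes of the constitutive 20S core, PSMB6 was the only call, and it was lost without dome-shaped replicate 2 or 3 or primed replicate 2, 3 or 4 (limma, adjusted p of up to 0.0770). None of 10 proteasome activators and assembly factors was called by limma, with 1 higher and 1 lower at an unadjusted p under 0.05. The median log2 differences of the lists were -0.084 and -0.023.

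ERAP1 encodes the aminopeptidase that trims peptides in the endoplasmic reticulum. It had 6.66, 8.56, 8.88 and 9.42 RPKM in dome-shaped libraries, against 13.2, 13.7, 12.5 and 14.2 RPKM in primed libraries. The groups were well apart, with the highest dome-shaped library below the lowest primed one. The mean was 8.38 ± 1.20 RPKM in dome-shaped and 13.4 ± 0.714 RPKM in primed ESCs (SD, n = 4 each), and the log2 difference of -0.63 had a 95% interval of -0.90 to -0.35 (limma, SE 0.12, adjusted p = 0.0122). Of the 3 called genes, ERAP1 alone kept its call without each library in turn (limma, adjusted p of at most 0.0435).

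NLRC5 is the transactivator of class I genes, and IRF1 is an interferon-induced transcription factor that acts on the shared promoter of TAP1 and PSMB9, as known in human cells. NLRC5 had 0.140, 0.0723, 0.0295 and 0.120 RPKM in dome-shaped libraries, against 0.115, 0.0849, 0.0384 and 0.135 RPKM in primed libraries. These values correspond to 13, 6, 3 and 10 reads in dome-shaped and 11, 8, 4 and 13 reads in primed libraries, and a count of 3 has an exact 95% Poisson interval of 0.619 to 8.77 reads, which covers counting error only. The groups overlapped, and with no filter the log2 difference was -0.004 with a 95% interval of -0.12 to 0.12 (limma, adjusted p = 0.977), on a log2(RPKM + 1) scale that compresses differences at such levels. The first protein match of its row was named nucleotide-binding oligomerization domain protein 4, and later matches named NLRC5.

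IRF1 had 1.53, 1.29, 2.38 and 1.67 RPKM in dome-shaped libraries, against 1.09, 1.17, 1.00 and 1.55 RPKM in primed libraries. The groups overlapped through primed replicate 4, and the log2 difference of 0.29 was not called (limma, 95% interval -0.10 to 0.68, adjusted p = 0.278).

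**Figure D4:**
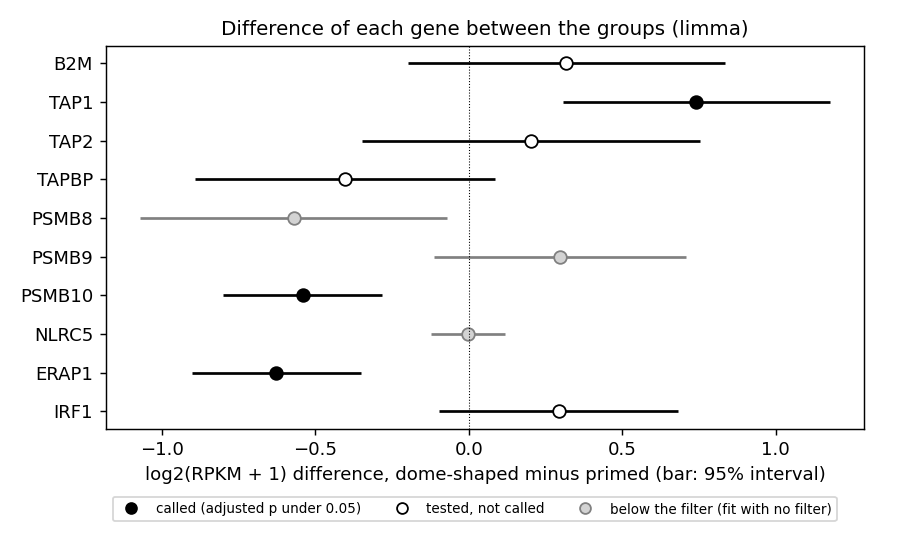
Difference in log2(RPKM + 1), dome-shaped minus primed, of each of the 10 genes with its 95% interval from limma. TAP1 (0.74), PSMB10 (-0.54) and ERAP1 (-0.63) were called; grey points are PSMB8, PSMB9 and NLRC5, taken from the fit with no filter.

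Of 8 factors that bind the shared promoter elements of MHC genes, ATF1 was lower (limma, log2 difference -0.33, adjusted p = 0.0272) and 7 were not called. Of 16 tested interferon receptors and signalling genes, PTPN2, a phosphatase that acts on JAK kinases, was higher (limma, log2 difference 0.27, adjusted p = 0.0276), and 15 were not called. These counts stand beside 7.96% lower and 6.38% higher among all genes tested. Both calls were lost without some of the single libraries, with adjusted p of up to 0.0767 for ATF1 (without primed replicate 2; also lost without dome-shaped replicate 2 or 3 or primed replicate 3 or 4) and 0.0791 for PTPN2 (without primed replicate 4; also lost without dome-shaped replicate 2 or 3 or primed replicate 1 or 2). IRF9, a DNA-binding factor of the type I interferon response, had a log2 difference of 0.13 (limma, adjusted p = 0.343). None of 9 tested NF-kB factors and targets was called by limma, and 0 had an unadjusted p under 0.05.

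Interferon-stimulated genes were called in both directions. Of 52 listed genes 45 were paired with a row and 20 were tested, with a median log2 difference of -0.084. Of the 20, 2 were higher and 2 lower, beside 6.38% higher and 7.96% lower among all genes tested. PML, the organiser of nuclear bodies, had 15.6, 12.7, 16.4 and 12.3 RPKM in dome-shaped libraries, against 8.13, 8.60, 9.01 and 8.38 RPKM in primed libraries (limma, log2 difference 0.67, adjusted p = 0.00901). TRIM22, an antiviral ubiquitin ligase, was higher by 0.66 (limma, adjusted p = 0.0447), which held after leaving out dome-shaped replicate 3 but after no other single omission (limma, adjusted p of up to 0.112). DHX58, an RNA helicase of the RIG-I family, had 1.38, 1.43, 1.33 and 2.35 RPKM in dome-shaped libraries, against 5.28, 10.3, 8.91 and 14.2 RPKM in primed libraries (limma, log2 difference -1.97, adjusted p = 0.00306). MX2, an interferon-induced GTPase, was lower, at a log2 difference of -0.79 (limma, adjusted p = 0.0123). BST2, chosen after its values were seen, was lower without overlap but was not called (limma, log2 difference -0.77, adjusted p = 0.0501).

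Among the other 25 paired interferon-stimulated genes, 20 were under 1 RPKM in every library and 6 were listed at 0 in all of them. CXCL9 and CXCL10, chemokines induced by interferon gamma, were among the 6. IFIT1 stood at no more than 0.125 RPKM and GBP1 at no more than 0.0884 RPKM in any library. ISG20, HERC6, CMPK2 and SAMD9L, also below the filter, were lower in every dome-shaped than in every primed library. No interferon-stimulated gene below the filter was higher in that way. How many of all genes below the filter separate the groups was not counted, so no pattern can be read from these genes.

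MHC class II genes, the counterpart for extracellular antigens, were mostly at or below a few RPKM. Of 12 paired class II pathway genes 5 were tested, and none was called by limma or had an unadjusted p under 0.05. CIITA, the class II transactivator related to NLRC5, had 0.0821, 0.0458, 0.0373 and 0.0229 RPKM in dome-shaped libraries, against 0.159, 0.242, 0.219 and 0.256 RPKM in primed libraries. Its groups did not overlap but lay below the filter; with no filter CIITA was lower (limma, log2 difference -0.22, adjusted p = 0.0345), and so was HLA-DPB1, at no more than 0.0910 RPKM in dome-shaped and 0.728 RPKM in primed libraries (limma, log2 difference -0.54, adjusted p = 0.0155). HLA-DPB1 was chosen after its values were seen. With no filter 1142 of 25576 genes were called lower by limma. Read numbers were not derived for CIITA or HLA-DPB1, so the counting error at these levels is not given.

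Ligands by which immune cells recognise or spare other cells were called in both directions. ULBP1, a stress ligand of the activating receptor NKG2D, was higher, with 4.64, 4.23, 3.30 and 4.23 RPKM in dome-shaped libraries against 2.13, 1.74, 1.72 and 1.62 RPKM in primed libraries (limma, log2 difference 0.86, adjusted p = 0.00748). CD59, an inhibitor of complement, was higher by 0.65 (limma, adjusted p = 0.0351), a call lost without dome-shaped replicate 2 or 3 or primed replicate 1, 2 or 4 (limma, adjusted p of up to 0.0973). NECTIN2, a ligand of natural killer cell receptors, was lower, at a log2 difference of -0.56, with 106.6 ± 13.5 RPKM in dome-shaped and 157.2 ± 14.9 RPKM in primed ESCs (SD, n = 4 each; limma, adjusted p = 0.0107). The other 6 of the 9 tested ligands were not called. Among all genes tested 14.3% were called.

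**Figure D5:**
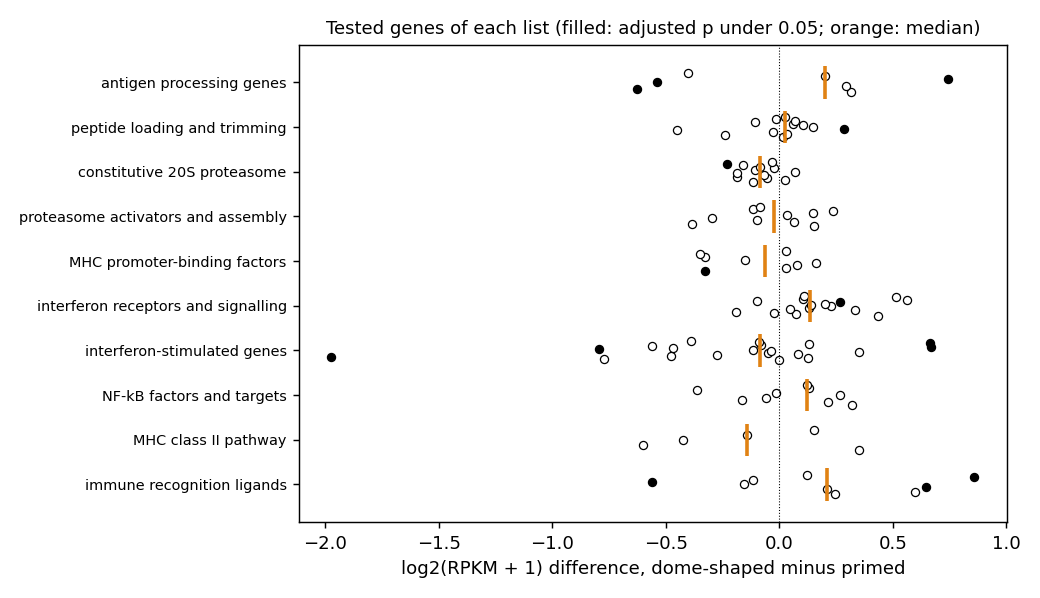
Difference in log2(RPKM + 1), dome-shaped minus primed, of every tested gene in the 10 antigen processing genes and 9 related lists (1 row of points per list, orange line the median; filled points have an adjusted p under 0.05 in limma). List medians lie between -0.14 and 0.21, and DHX58 at -1.97 is the lowest point.

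Within the groups, several antigen processing genes shared a split of their libraries. The splits below were picked after the values were seen. How many of all genes tested show them was not counted, so they cannot be called particular to these genes. In dome-shaped ESCs, replicates 1 and 4 had higher levels than replicates 2 and 3 for TAP1, TAP2, TAPBP, PSMB8, NLRC5 and the summed class I heavy chain rows, but not for B2M, PSMB9, PSMB10, ERAP1 or IRF1. In primed ESCs, replicates 2 and 4 had higher levels than replicates 1 and 3 for TAP1, TAP2, TAPBP, PSMB8, ERAP1 and IRF1, but not for B2M, PSMB9, PSMB10, NLRC5 or the summed class I heavy chain rows. TAP1, TAP2, PSMB8 and PSMB9 are neighbours in the MHC. In the RefSeq gene table of assembly T2T-MFA8v1.1 they stand in the order PSMB9, TAP1, PSMB8, TAP2 with 1 other locus between TAP1 and PSMB8. PSMB9 overlaps TAP1, and the other locus overlaps both TAP1 and PSMB8, whereas PSMB8 and TAP2 do not overlap. Whether the gene models behind the RPKM values have the same overlaps is not known. No strand-specific step is recorded for the libraries, so reads from the overlapping ends of PSMB9 and TAP1 cannot be told apart.

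The summed level of 8 endothelial markers did not overlap between the groups. It was 20.6 to 33.4 RPKM in dome-shaped and 8.19 to 13.9 RPKM in primed libraries, carried by TEK, the angiopoietin receptor (limma, log2 difference 3.24, adjusted p = 0.00128). ENG was lower, at a log2 difference of -0.49 (limma, adjusted p = 0.0439), a call lost without each single library. CDH5 and VWF were not called (limma, log2 differences 0.07 and -0.46, adjusted p = 0.899 and 0.456). PECAM1 was at no more than 0.851 RPKM in dome-shaped and 1.99 RPKM in primed libraries, and CLDN5 at no more than 0.0980 RPKM in any library. The 4 tested endothelial markers had a median log2 difference of -0.19. The part of such cells in the levels of TAP1, PSMB10 or ERAP1 was not tested.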

How the data were processed

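Polyadenylated RNA of 4 dome-shaped and 4 primed ESC samples was sequenced, per the labels. The authors deposited 1 table of RPKM values for 33121 named rows, after 17 blank rows were left out. Tools named in the submitters' processing notes are TopHat2 2.0.9, Bowtie2 2.0.6 and HTSeq 0.6.1. The genome build and annotation release are not named in the sources that were used. Of the 33121 rows, 30246 carry identifiers with the prefix ENSMMUG, which Ensembl gives to genes of the rhesus monkey (Macaca mulatta). The columns of dome-shaped replicates 1 to 3 lack the end of their titles and were assigned to the only title left with that start. Values were transformed to log2(RPKM + 1), which understates differences of low genes, and tested with limma 3.58.1 in R 4.3.3 (mean trend, two-sided, no covariate) on the 15597 genes that reached 1 RPKM in 4 or more of the 8 libraries, with Benjamini-Hochberg adjustment over all of them. The script was tested on simulated data. Depth was read from the steps of the low values, of which 71.6% to 73.5% were whole reads within 0.01 of a read, too few for a count test. Reads came out whole in all 8 libraries for 7 of the 10 genes, but not for TAP2, TAPBP and PSMB8, whose read numbers are approximate.

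The genes and 13 related lists of 200 genes were chosen with earlier results of these data known, so none of them is independent support. Symbols came from the table, from protein matches of at least 85% identity, or from RefSeq (T2T-MFA8v1.1) by accession. The genes named are the 10 antigen processing genes, up to 4 called genes of each list with the smallest adjusted p, PSMB5, PSMB6, PSMB7, IRF9, CIITA, class I heavy chain rows with a mean of at least 1 RPKM, and the 5 genes most correlated with B2M; others illustrate a marker list or lie at or near 0 and were chosen after their values were seen. One gene that the rule takes is left out of the text. Subunit ratios were compared by exact permutation of the 8 libraries. Alternatives were quantile normalization, a pseudocount of 0.1, median-of-ratios scaling, no filter, a minimum mean of 5 RPKM, leaving out each library, and a block on the number after CES in the titles. Class I rows and the related lists were taken through the same alternatives after the data were seen. Replicates were numbered in accession order, so equal numbers pair nothing.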

Additional observations from a re-analysis of the deposited data

Results flagged for a closer look

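In groups of 4 libraries, a library was singled out where its gap to the nearest other as a share of the group's range exceeded Dixon's 95% critical value. Of 74 groups examined 8 had such a library, and chance gives about 1 in 20. PSMB9 stood at 0.983 RPKM in primed replicate 2, against 0.720 to 0.741 RPKM in the other primed libraries, and the ratio of PSMB9 to PSMB6 at 0.445%, against 0.324% to 0.339%; at this level the values rest on at most 20 reads. PSMB5 stood at 96.2 RPKM in dome-shaped replicate 1, against 109.2 to 111.4 RPKM in the other dome-shaped libraries. IRF9 stood at 46.0 RPKM in dome-shaped replicate 1, against 52.4 to 52.5 RPKM. ZFP42 stood at 40.4 RPKM in dome-shaped replicate 1, against 55.8 to 57.0 RPKM. DHX58 stood at 2.35 RPKM in dome-shaped replicate 4, against 1.33 to 1.43 RPKM. PDGFRB stood at 7.25 RPKM in primed replicate 3, against 9.85 to 10.1 RPKM in the other primed libraries. TEK stood at 3.79 RPKM in primed replicate 1, against 0.553 to 1.03 RPKM.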

How the results depend on the processing

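Of the antigen processing genes 1 was called higher and 2 lower; the higher call (TAP1) was lost with no filter (0) and with the block on the CES number (0), and the higher count ranged from 0 to 1 when single libraries were left out, the 1 without primed replicate 1 being B2M in place of TAP1. The lower count was 0 with the block and 1 to 2 without single libraries. With the block, adjusted p values (limma) were 0.0837 for TAP1, 0.0625 for PSMB10 and 0.0522 for ERAP1, with log2 differences of 0.79, -0.53 and -0.59. Dome-shaped and primed libraries with the same CES number did not deviate together (correlations of -0.0975 to 0.125 over 5 pairs). The number, whose meaning the labels do not give, was therefore not used to pair them. Libraries of the same group with the same number were not compared. The correlations thus cannot show that libraries with the same number are independent. Over all genes, 303 were higher and 593 lower with the block, and 381 to 1289 were higher and 655 to 1441 lower without single libraries, against 995 and 1242 with all of them. With a mean of at least 5 RPKM, 828 were lower. The 3 subunit ratios kept their directions in the 9 alternatives run; a single ratio whose groups do not overlap can reach no adjusted p below 0.0857 on its own, so that their side of the threshold says nothing of stability. No direction of the 7 tested antigen processing genes reversed. The cause of the lost calls was not tested. Summing rows of a gene was not run, since each antigen processing gene had 1 row. The constitutive subunit gene PSMB5 had 2 rows, which were not summed either. NLRC5, PSMB8 and PSMB9 are limited by depth.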

Other observations

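ERAP2, a second trimming aminopeptidase that was chosen after its values were seen, had 0.653 RPKM in dome-shaped replicate 2, an implied 29 reads, and was listed at 0 in each of the other 7 libraries. Dome-shaped replicates 1 and 2 share a CES number in their titles, yet only replicate 2 had these reads. IFITM1 and IFITM3, interferon-induced membrane proteins also chosen after their values were seen, stood far above the other interferon-stimulated genes. IFITM1 had 553.5 to 1230 RPKM in dome-shaped and 404.5 to 847.1 RPKM in primed libraries, and IFITM3 had 532.3 to 732.2 RPKM in dome-shaped and 522.3 to 693.0 RPKM in primed libraries. Neither was called (limma, log2 differences 0.35 and -0.03, adjusted p = 0.396 and 0.872). PDCD1LG2, a ligand of the inhibitory receptor PD-1, was listed at 0 in all 8 libraries, and CD274, the other such ligand, stood at no more than 0.0732 RPKM in any.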
